A study of Mus musculus with 40 samples.

Results

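The cytosolic ribosomal protein genes were followed in cultured mouse oligodendrocytes. Members were the gene table's entries named Rpsa, or Rpl or Rps followed by p0, p1, p2 or a number with an optional final a, x or l, that held at least 10 reads in every library. The rule used symbols and a read minimum only. Of 39056 gene entries, 83 fitted the name and 79 passed the minimum, namely 32 of the small subunit, 44 of the large subunit and 3 of the stalk (Rplp0, Rplp1 and Rplp2). Rpl32l, Rpl10l, Rpl39l and Rpl3l fell below it, the closest being Rpl32l with a lowest count of 3 reads. The members nearest to the minimum were Rpl6l, with a lowest count of 15 reads, and Rpl24, with 36. Rpl6l and Rps4l are annotated as pseudogenes, and the other 77 members as protein coding.

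The 40 libraries were bulk RNA-seq of wild-type C57BL/6 cells, made as oligodendrocyte progenitors by immunopanning from the cortices of pups 6 to 7 days old, passaged, and left to differentiate for 12 to 14 h before treatment. The labels name the tissue both as cortex and as whole brain. IFN-gamma, an inflammatory cytokine, was given at 200 U/ml and libraries were made at 1, 8, 24 and 48 h. Thapsigargin, an inhibitor of the calcium pump of the endoplasmic reticulum that causes stress in that organelle, was given at 200 µM according to the labels, with libraries at 1 and 8 h. Untreated cells were taken at 1, 8, 24 and 48 h, which makes 10 groups of 4 libraries. Nothing in the labels says whether the 4 libraries of a group came from separate cultures or animals, they are numbered here in accession order, and p-values then measure only the spread between these libraries.

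Each cytosolic ribosome is built from ribosomal RNA and one copy of most of these proteins, with the acidic stalk proteins, which recruit the elongation factors, as the exception. Many ribosomal protein messages begin with a C followed by a run of pyrimidines, the TOP motif, through which mTOR and Larp1 set their translation. Several of the genes also make an alternative transcript that carries a premature stop codon and is removed by nonsense-mediated decay, a route of self-control described for Rpl3 and Rpl12. Cells that leave the cell cycle commonly make fewer ribosomes. Levels below are CPM, reads of a gene divided by the trimmed-mean-scaled size of its library, and a member is called when edgeR's quasi-likelihood test gave a p below 0.05 after Benjamini-Hochberg adjustment over all 15135 genes tested. In bulk RNA, fewer cells of a type and less RNA per cell cannot be told apart.

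Library totals ran from 13165483 to 22651092 reads on genes, and 77 of the 79 members had over 100 reads in every library. Ribosomal-RNA-like entries took 28.3% of the reads in IFN-gamma 1 h replicate 2, and untreated 24 h replicate 4 and untreated 48 h replicate 2 had the member share farthest from their groups once those entries are left out; with them IFN-gamma 1 h replicate 2 was the farthest. The oligodendrocyte lineage markers Olig1, Olig2, Sox10 and Cnp were detected in every group. Defining microglia and endothelial markers were low, with summed levels of 14.1 to 26.5 CPM for 10 microglia and macrophage genes and 3.63 to 20.2 CPM for 9 endothelial and mural genes over all groups. Lists of 10 astrocyte and 10 neuron genes were not low, with sums of 242 to 823 CPM and 853 to 1399 CPM. Map2 alone averaged 1050.5 CPM in untreated 1 h libraries, where the neuron list summed to 1097 to 1153 CPM. Library numbers in the labels divide each group evenly, with 2 of its libraries among the lower 20 numbers and 2 among the upper 20. What the numbers mark is not stated.

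RefSeq gives promoter windows, on build GRCm38.p6, for 57 of the 79 members with 68 start sites. A start at C followed by pyrimidines, at least 5 in all, was found at 13 of 68 member starts (19.1%) and at 823 of 32851 starts of all genes (2.51%). The windows below run from 30 bases before the annotated start to 20 bases from it, and capitals mark the pyrimidine run from the start, or the start base alone where no such run exists. Rps6, the small subunit protein phosphorylated by the S6 kinases, lies at chr4:86857348-86857397 on the minus strand, Rplp2 at chr7:141447621-141447670 on the plus strand and Rps10 at chr17:27635225-27635274 on the minus strand, and these show the run. Rpl10 (chrX:74270786-74270835 on the plus strand), Rpl12 (chr2:32961682-32961731 on the plus strand), Rpl37a (chr1:72711230-72711279 on the plus strand) and Rpl11 (chr4:136053374-136053423 on the minus strand) are shown because they were among the members that changed most under thapsigargin at 8 h, and their annotated starts do not show it.
Rps6: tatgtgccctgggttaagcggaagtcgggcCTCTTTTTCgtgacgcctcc
Rplp2: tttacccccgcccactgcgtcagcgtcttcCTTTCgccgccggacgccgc
Rps10: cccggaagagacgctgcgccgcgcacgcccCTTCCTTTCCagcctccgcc
Rpl10: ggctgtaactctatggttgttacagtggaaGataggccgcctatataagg
Rpl12: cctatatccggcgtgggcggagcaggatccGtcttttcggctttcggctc
Rpl37a: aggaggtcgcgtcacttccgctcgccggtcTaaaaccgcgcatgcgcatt
Rpl11: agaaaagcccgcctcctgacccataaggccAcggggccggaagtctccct

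Annotated starts can miss the start used in these cells by a few bases, so a missing run says only that these letters are not at the annotated base. Other motifs were searched on both strands of the 300 bases from 250 before to 50 after each start. CCGGAAG, a core bound by ETS-family factors, was found in 25 of 68 member windows (36.8%) and in 8.86% of all windows. GCCATCTT, a core bound by YY1, was found in 7 of 68 (10.3%) against 2.75%, and TATAAA in 6 of 68 (8.82%) against 13.6%. The 13 members with the pyrimidine run and the 44 without it had close median log2 fold changes in the comparisons below. The medians with and without the run were -0.505 and -0.516 in untreated cells at 48 h against 1 h, and 0.261 and 0.257 for IFN-gamma at 48 h. They were -0.213 and -0.204 for thapsigargin at 1 h, and -0.023 and -0.025 for thapsigargin at 8 h. All 13 and all 44 fell in untreated cells at 48 h, where 30.4% of all genes were called lower. With IFN-gamma at 48 h, 4 of 13 with the run and 24 of 44 without it rose, where 16.9% of all genes were called higher. At 8 h of thapsigargin 1 of 13 with the run rose and none fell, and 6 of 44 without it rose and 10 fell. In that comparison 60.6% of all genes were called either way. The difference between the sets was not tested.

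As a mean of the 10 group means, the highest members were Rplp0 at 1397 CPM, Rpsa, the laminin receptor protein of the small subunit, at 1357 CPM, Rpl7 at 1091 CPM, Rpl3 at 1005 CPM and Rps2 at 996 CPM. The lowest were Rpl6l at 1.55 CPM, Rpl24 at 3.78 CPM, Rps4l at 15.1 CPM, Rpl13a at 101 CPM and Rps27l at 184 CPM. CPM is not divided by length, so it does not rank genes by number of transcripts. On a per-length scale taken from the deposited isoform table, the highest members were Rplp1, Rps24, Rpl41, Rps29 and Rps2, at 2550, 2525, 2492, 2343 and 2324 TPM, computed here from its estimated counts and GENCODE transcript lengths. For Rpl24, Rpl13a, Rps6 and Rpl15 the gene table held under 0.5 times the reads that the isoform table gives them, and for Rpl6l, Rps12, Rpl12, Rpl27, Rpl5 and Rpl10 over 1.5 times. Reads shared with near-identical copies are a known source of such gaps, and the levels of these 10 genes are uncertain on either scale. The 282 pseudogene entries named after members held about 0.01% of reads.

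Over the groups, the widest ranges of group means on the log2 CPM scale were those of Rpl12 and Rps27l (1.13 each), Rps16 (1.04), Rpl13 (0.98) and Rpl10 (0.93). The narrowest were those of Rpl22 and Rpl7 (0.30 each), Rpl38 (0.35), Rpl28 (0.38) and Rps28 (0.41). Untreated 48 h was the group of lowest mean for 75 of 79 members. The group of highest mean was untreated 1 h for 45 members, thapsigargin 8 h for 25, untreated 8 h for 5, IFN-gamma 1 h for 3 and IFN-gamma 8 h for 1.

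**Figure D1:**
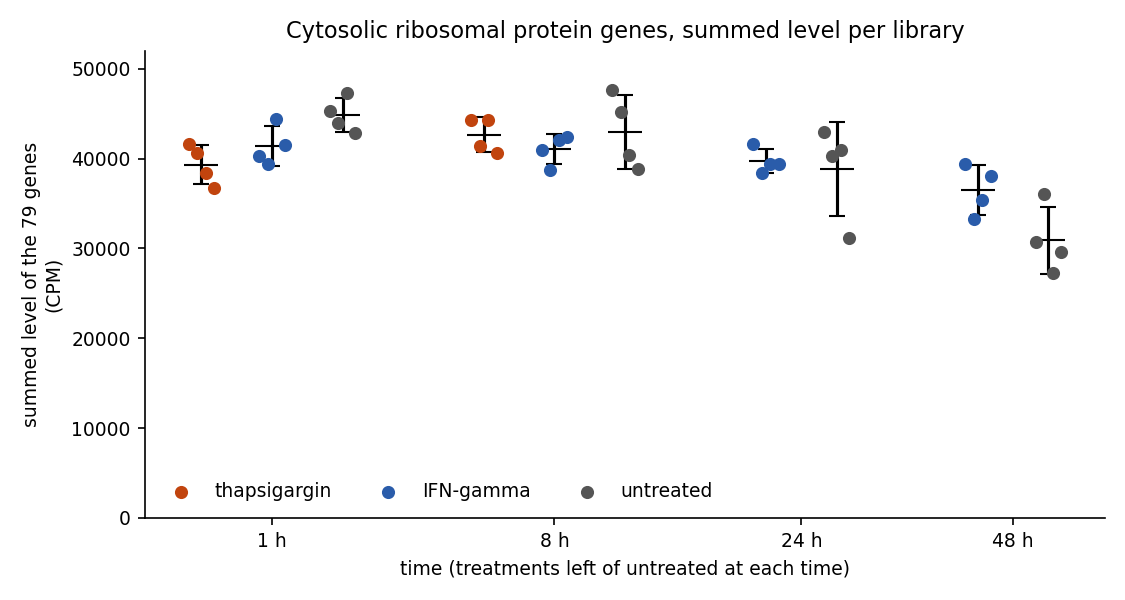
Summed level of the 79 members in each library, in CPM, by time; points are libraries, bars the mean and SD of 4. The IFN-gamma 48 h libraries lie between 33238 and 39363 CPM and the untreated 48 h libraries between 27208 and 36052 CPM, with the untreated 48 h group below all 4 untreated 1 h libraries.

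Nearly the whole set fell over time in untreated culture. The summed member level was 44847 ± 1876 CPM in untreated 1 h libraries, 42978 ± 4090 CPM at 8 h, 38816 ± 5223 CPM at 24 h and 30884 ± 3739 CPM at 48 h (SD, n = 4 each). At 48 h, 78 of 79 members were lower than at 1 h and none was higher, where 62.3% of all genes were called and 30.4% were called lower. Rpl6l alone was not called. All 32 small subunit members, 43 of 44 large subunit members and the 3 stalk genes fell. The members' median log2 fold change was -0.53, and that of all genes tested was -0.00. The 4 libraries of each group did not overlap for 71 members, against 52.1% of all genes.

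Rps27l, a paralog of Rps27 known as a p53 target, had 96.9, 129, 106 and 109 CPM in the untreated 48 h libraries, against 233, 218, 274 and 240.1 CPM in the untreated 1 h libraries. Every 48 h library lay below every 1 h library, and the log2 fold change was -1.13 ± 0.13 (SE, edgeR adjusted p = 4.65e-09), the largest fall among the members. Its paralog Rps27 had 336, 405, 274 and 327 CPM in the untreated 48 h libraries, against 421, 395, 481 and 440.3 CPM in the untreated 1 h libraries. Those groups overlapped, and the change was -0.37 ± 0.12 (SE, edgeR adjusted p = 0.00837). Rpl13, of the large subunit, had 276, 326, 404 and 298 CPM in the untreated 48 h libraries, against 745, 759.9, 572 and 488 CPM in the untreated 1 h libraries, with no overlap and a spread inside the 1 h group. Its change was -0.98 ± 0.20 (SE, edgeR adjusted p = 9.41e-05).

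Rpl12, whose protein sits at the base of the stalk, had 331, 400.1, 307 and 326 CPM in the untreated 48 h libraries, against 633, 602, 667 and 554 CPM in the untreated 1 h libraries. The groups stood clear of each other, with a change of -0.85 ± 0.10 (SE, edgeR adjusted p = 7.27e-09). Rps19, mutated in Diamond-Blackfan anaemia, had 317, 409, 313 and 346 CPM in the untreated 48 h libraries, against 582, 605, 689.9 and 615 CPM in the untreated 1 h libraries. It changed by -0.85 ± 0.13 (SE, edgeR adjusted p = 6.65e-07), again without overlap. Among the stalk genes, Rplp2 had 256, 253, 285 and 273 CPM in the untreated 48 h libraries, against 485, 486, 487 and 409 CPM in the untreated 1 h libraries, and changed by -0.81 ± 0.13 (SE, edgeR adjusted p = 2.16e-06). Rplp0, the scaffold of the stalk, had 1103, 1307, 894 and 1004 CPM in the untreated 48 h libraries, against 1586, 1538, 1652 and 1468 CPM in the untreated 1 h libraries, a change of -0.54 ± 0.09 (SE, edgeR adjusted p = 8.54e-06). Rplp1 changed by -0.69, Rpsa by -0.56, Rps6 by -0.50, Rpl3 by -0.47, Rpl10 by -0.45, Rpl39 by -0.40 and Rpl36a by -0.49 on the log2 scale, all called. Rps4x, an X-linked member, had 725, 900.2, 552 and 692 CPM in the untreated 48 h libraries, against 943, 1018, 1149.7 and 1051 CPM in the untreated 1 h libraries, with no overlap and a change of -0.54 ± 0.11 (SE, edgeR adjusted p = 7.89e-05).

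Earlier times moved fewer members. At 8 h none of 79 was called in either direction by edgeR, where 6.93% of all genes were, 4 had an unadjusted p below 0.05, and DESeq2 called 1. At 24 h, 23 members were lower and none higher, where 28.3% of all genes were called and 14.4% were called lower, and the members' median was -0.21. Among members whose libraries did not overlap, the largest falls were Rpl36 (-0.47), Rps27l (-0.46), Rps2 (-0.45), Rps4l (-0.38) and Rpl12 (-0.37) on the log2 scale, with edgeR adjusted p of 0.013, 0.0061, 0.0199, 0.0224 and 0.00479. Rpl36 had 248, 229, 206 and 148 CPM in the untreated 24 h libraries, against 314, 306, 279 and 250.2 CPM in the untreated 1 h libraries. Rps27l had 181, 161, 214 and 145 CPM in the untreated 24 h libraries, against 218 to 274 CPM at 1 h. Replicate 4 was the lowest 24 h library for both, and without it 2 members were called at 24 h with a median of -0.09. Leaving out 1 h replicate 1, 2 or 3 left 8, 10 and 9 calls, and leaving out 24 h replicate 2 or 3 left 14 and 15.

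In the lower 20 library numbers, 70 members were lower at 48 h than at 1 h with a median of -0.41, and in the upper 20 numbers 75 with a median of -0.66. For 24 h the counts were 2 and 21, with medians of -0.09 and -0.33, and for 8 h 0 and 0, with medians of 0.06 and -0.19. Myelin markers moved over the same times. The summed level of Mbp, Mog, Mag and Mobp was 436 to 4054 CPM in untreated 48 h libraries, against 41.0 to 103 CPM at 1 h, with 4 of 4 genes higher. Among untreated 48 h libraries, replicate 2 had the lowest myelin sum, 436 CPM, and the highest member sum, 36052 CPM. Replicate 3 had 3765 CPM of myelin genes and the lowest member sum, 27208 CPM. The highest myelin sum, 4054 CPM, was that of replicate 4, with a member sum of 29589 CPM, and replicate 1 had 2820 and 30687 CPM. Premyelinating markers summed to 3235 to 4223 CPM at 48 h, against 472 to 773 CPM at 1 h, and progenitor markers to 1582 to 3539 CPM, against 3935 to 4320 CPM. Astrocyte markers summed to 629 to 823 CPM at 48 h, against 438 to 500.2 CPM at 1 h, with 7 of 10 genes higher and 2 lower. Of 8 neuron markers tested 1 was higher and 4 were lower. The part of these markers in the member levels was not tested.

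Most genes of ribosome production fell with the members at 48 h, where 30.4% of all genes were called lower. Of 42 ribosome biogenesis genes, 41 fell and none rose, among them Dkc1 (-1.08), the pseudouridine synthase of box H/ACA particles, Nhp2 (-1.07), from the same particles, and Nop58 (-0.98), of box C/D particles. All 6 ribosome components or paralogs that the symbol rule leaves out fell, including Rpl22l1 (-0.73), Rpl7l1 (-0.38), Rack1 (-0.57), Fau (-0.48) and Rps3a1 (-0.46). Among 29 other TOP messages and translation factors, a list that shares Rack1, Fau and Npm1 with the lists above, 20 fell and 1 rose, and the filament gene Vim fell farthest. Of 77 mitochondrial ribosomal protein genes, 61 fell and 2 rose. Among 27 regulators of translation and growth, 14 fell and 8 rose, and Mycn (-1.92) and Myc (-0.60), activators of ribosome production, were lower, while Mxd4 (1.27), a Max partner that opposes Myc, was higher. The lists' medians were -0.63, -0.53, -0.36, -0.33 and -0.18 in the order given.

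**Figure D2:**
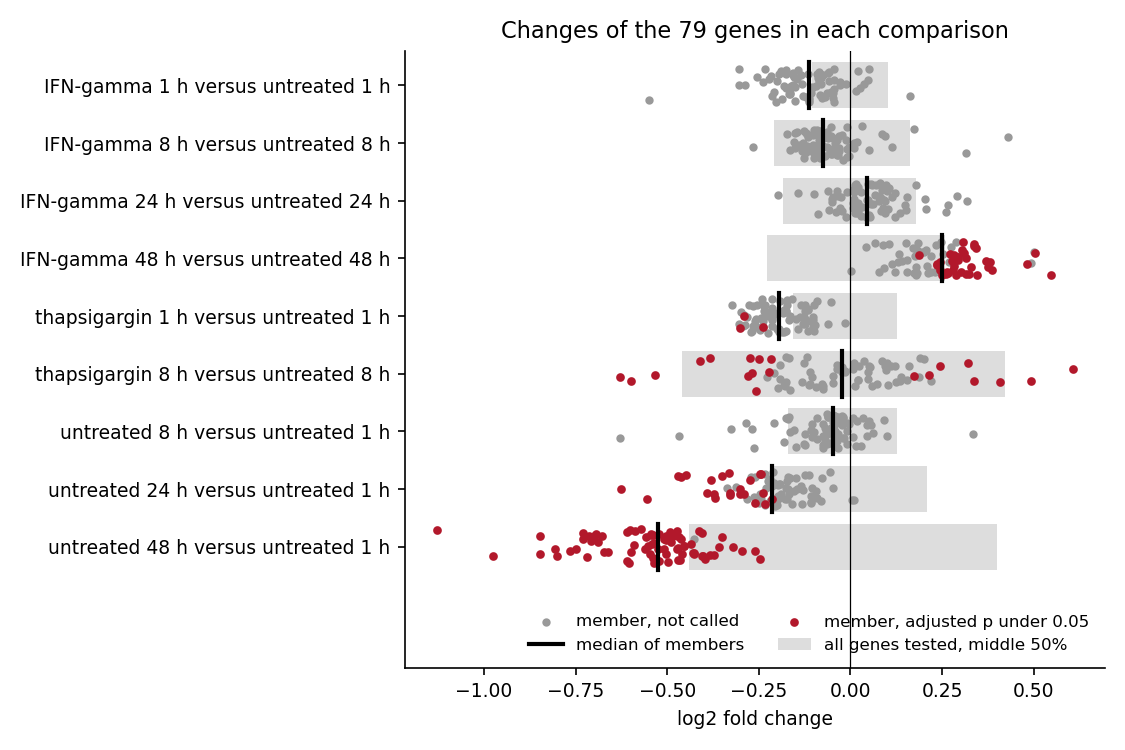
Log2 fold change of each member (points, red when called) in the 9 comparisons with untreated cells or over time, with the members' median (black) and the middle 50% of all genes tested (grey bar). The members lie left of 0 for untreated 48 h (median -0.53) and right of it for IFN-gamma 48 h (median 0.25), and spread to both sides for thapsigargin 8 h.

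Each IFN-gamma group was set against the untreated libraries of its own hour, to ask how the cytokine moves these genes as the cells differentiate. At 48 h the members stood higher in treated cells. Of 79, 37 rose and none fell, where 36.8% of all genes were called and 16.9% were called higher. All 79 estimates were above 0, with a median of 0.25 against -0.00 over all genes. By subunit, 17 of 32 small, 19 of 44 large and 1 of 3 stalk members rose. The summed level was 36493 ± 2733 CPM in IFN-gamma 48 h libraries and 30884 ± 3739 CPM in untreated 48 h libraries (SD, n = 4 each).

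Rps20, of the small subunit, had 463, 364, 383 and 389.6 CPM in the IFN-gamma 48 h libraries, against 277, 324, 258 and 285 CPM in the untreated 48 h libraries. All treated libraries were above all untreated ones, and the log2 fold change was 0.48 ± 0.11 (SE, edgeR adjusted p = 0.000624). Rps15a had 464, 426, 445 and 458 CPM in the IFN-gamma 48 h libraries, against 351, 381, 294 and 345 CPM in the untreated 48 h libraries, a change of 0.39 ± 0.10 (SE, edgeR adjusted p = 0.00249). Rpl39, a short X-linked protein of the exit tunnel, had 404, 343, 335 and 319 CPM in the IFN-gamma 48 h libraries, against 265, 281, 263 and 266 CPM in the untreated 48 h libraries. It rose by 0.38 ± 0.11 (SE, edgeR adjusted p = 0.00646), and the groups did not overlap. Rpl10 and Rps13 rose by 0.34 and 0.34 on the log2 scale, with edgeR adjusted p of 0.00305 and 0.00569. Of the remaining members followed by name, Rps27l (0.37), Rps4x (0.32), Rpl36a (0.31), Rpl3 (0.28) and Rplp0 (0.26) were called.

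Others did not pass. Rpsa had 1199, 1028, 1110.4 and 1276 CPM in the IFN-gamma 48 h libraries, against 1185, 1379, 841 and 996 CPM in the untreated 48 h libraries, which interleave, and its change was 0.07 ± 0.11 (SE, edgeR adjusted p = 0.676). Rps6, Rps27, Rplp1 and Rplp2 had log2 fold changes of 0.22, 0.30, 0.18 and 0.25, with edgeR adjusted p of 0.0769, 0.0526, 0.173 and 0.124. Rps27l, though called, had 197, 114, 119 and 140.0 CPM in the IFN-gamma 48 h libraries, against 96.9, 129, 106 and 109 CPM in the untreated 48 h libraries, and only replicates 1 and 4 stood above the untreated range.

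The size of this rise depended on single libraries. Without untreated 48 h replicate 2, which had the group's highest member sum, 61 members were called. Without untreated 48 h replicate 3 or 4 the counts were 19 and 24, and without IFN-gamma 48 h replicate 1 the count was 21. The lower 20 library numbers gave 9 calls, all higher, with a median of 0.14, and the upper 20 gave 48, all higher, with a median of 0.40. Fitting only the 2 groups compared gave 4 calls, and the isoform table summed per gene gave 16. Y-linked genes were near 0 CPM in 2 IFN-gamma libraries of every time and not in the other 2. In the untreated libraries of all times they summed to 144 to 424 CPM. The sex of the cells was thus not balanced between IFN-gamma and untreated groups. With the Y-linked level as a covariate 26 members were called. Myelin markers moved the other way, with a summed level of 86.8 to 864 CPM in IFN-gamma 48 h libraries, against 436 to 4054 CPM in untreated 48 h libraries and 4 of 4 genes lower. Within the IFN-gamma 48 h group, replicate 1 had the lowest myelin sum, 86.8 CPM, with the highest member sum, 39363 CPM, but replicate 2 had the second lowest myelin sum, 416 CPM, with the lowest member sum, 33238 CPM. Of 8 neuron markers tested 3 were higher and none lower with IFN-gamma, among them Syt1 (1.26) and Tubb3 (1.22). The list of 10 summed to 863 to 1395 CPM, against 1096 to 1275 CPM in untreated 48 h libraries. Map2 made up most of that list's sum in untreated 1 h libraries, so the sum says little about the other markers. Lum (6.48), of the fibroblast and meningeal list, and Acta2 (3.26), of the endothelial and mural list, were higher, at 8.08 and 8.43 CPM, against 0.0764 and 0.877 CPM. They are named for the size of their change. The endothelial and mural list summed to 9.89 to 12.6 CPM, against 3.63 to 9.36 CPM in untreated 48 h libraries. Kdr of that list had a lower IFN-gamma effect at 48 h than at 1 h (-2.01, edgeR adjusted p = 3.19e-06). The fibroblast and meningeal list, which holds Pdgfra, summed to 955 to 1807 CPM, against 681 to 1833 CPM. Of 10 astrocyte markers 3 were higher and 4 lower. The part of these markers in the member levels was not tested.

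Before 48 h no member passed. At 1, 8 and 24 h the counts were 0 of 79 in either direction, where 1.29%, 25.2% and 23.1% of all genes were called. Unadjusted p-values below 0.05 numbered 11, 1 and 1, and DESeq2 called none at any of these times. The medians were -0.11, -0.07 and 0.04. At 8 h the library numbers split the result, with 22 members lower and a median of -0.24 in the lower 20, and 0 called with a median of 0.08 in the upper 20. Rpsa at 8 h had the log2 fold change -0.27 ± 0.11 (SE, edgeR adjusted p = 0.0824).

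The change of the IFN-gamma effect with time was tested as an interaction. Between 1 and 48 h, 31 of 79 members had a higher effect at 48 h and none a lower one, where 20.1% of all genes were called and 8.68% were called higher, with a median difference of 0.36. The largest were Rps19 (0.68), Rps20 (0.65), Rplp2 (0.56), Rps13 (0.56) and Rps10 (0.54), with edgeR adjusted p of 0.00541, 0.00246, 0.0267, 0.00289 and 0.0141. The lower and upper 20 library numbers gave 8 and 23 calls, all higher. Single libraries moved the count as for 48 h alone: without untreated 48 h replicate 2 it was 58, without replicate 3 or 4 of that group 14 and 20, without IFN-gamma 48 h replicate 1 or 4 it was 13 and 20, and without IFN-gamma 1 h replicate 2 it was 19. Between 24 and 48 h none was called, where 1.68% of all genes were, although 78 estimates were above 0 and 10 had an unadjusted p below 0.05 by edgeR, and DESeq2 called none. Without untreated 48 h replicate 2, 14 members passed that test, and without untreated 24 h replicate 4, 2 did.

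Some genes of ribosome production rose beside the members at 48 h of IFN-gamma, where 16.9% of all genes were called higher. Of 42 ribosome biogenesis genes 18 rose and none fell, among them Dkc1 (0.50), Nop58 (0.47) and Npm1 (0.42), the nucleolar chaperone. Of 29 TOP messages and translation factors 16 rose and 1 fell, and of 77 mitochondrial ribosomal protein genes 6 rose and 8 fell. Rpl22l1 (0.54) and Rps3a1 (0.31) rose, and Rack1 had 0.10 (edgeR adjusted p = 0.495) and Fau 0.18 (0.104). Among 27 regulators 6 rose and 4 fell. Eif2ak2, the interferon-induced kinase PKR that halts translation on double-stranded RNA, rose by 4.26, and Myc by 0.39.

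At 1 h of thapsigargin the summed level was 39311 ± 2186 CPM in thapsigargin 1 h libraries and 44847 ± 1876 CPM in untreated 1 h libraries (SD, n = 4 each). All 79 estimates were below 0, with a median of -0.20 against -0.02 over all genes, and the groups did not overlap for 34 members, against 18.1% of all genes. The test called 3 members lower and none higher, where 8.79% of all genes were called and 2.18% were called lower. An unadjusted p below 0.05 was reached by 33 members. Rps13 had 372, 354, 305 and 296 CPM in the thapsigargin 1 h libraries, against 407, 400.4, 434 and 394 CPM in the untreated 1 h libraries, a log2 fold change of -0.30 ± 0.10 (SE, edgeR adjusted p = 0.0422). Rpl8 had 969, 910.0, 858 and 856 CPM in the thapsigargin 1 h libraries, against 1176, 1146, 1101 and 971 CPM in the untreated 1 h libraries, where treated replicate 1 came within 3 CPM of the lowest untreated library, and changed by -0.29 ± 0.09 (SE, edgeR adjusted p = 0.029). Rpl34 had 244, 227, 214 and 218 CPM in the thapsigargin 1 h libraries, against 267, 249, 293 and 255 CPM in the untreated 1 h libraries, and changed by -0.24 ± 0.07 (SE, edgeR adjusted p = 0.0346). The groups did not overlap for these 3 genes.

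That count moved with the method. DESeq2 called 12 members, a fit of only the compared groups 32, a block for the library number 6, and the fit without a filter and the isoform table none. Leaving out 1 library gave 0 to 5, with 0 without thapsigargin 1 h replicate 3 or 4 or without untreated 1 h replicate 1 or 3, 1 without untreated 1 h replicate 2, and 5 without thapsigargin 1 h replicate 1. The lower and upper 20 library numbers gave 1 and 3 calls, with medians of -0.14 and -0.27. Y-linked genes summed to 29.6 CPM in thapsigargin 1 h replicate 2, against 212 to 316 CPM in the rest of its group. Untreated 1 h libraries had 144 to 275 CPM of them, so the sex of the cells was not balanced here either. The count with the Y-linked level as a covariate is not given for thapsigargin. Fau, which encodes the ribosomal protein S30, fell by 0.29 on the log2 scale (edgeR adjusted p = 0.0332), and Myc was higher (0.34, edgeR adjusted p = 0.015). Of 77 mitochondrial ribosomal protein genes 9 fell and none rose, beside 2.18% of all genes called lower.

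At 8 h of thapsigargin the members split. Of 79, 8 rose and 12 fell, where 60.6% of all genes were called. Their middle 50% ran from -0.18 to 0.10 on the log2 scale, against -0.46 to 0.42 for all genes. The summed level was 42637 ± 1955 CPM in thapsigargin 8 h libraries and 42978 ± 4090 CPM in untreated 8 h libraries (SD, n = 4 each). The 18 members whose groups did not overlap compare with 56.7% of all genes. The genes that rose were the pseudogene Rpl6l and Rpl10, Rpl12, Rpl4, Rpl10a, Rps6, Rpl5 and Rpl34. By name 7 of these 8 belong to the large subunit, as do 44 of all 79 members. The genes that fell were Rpl37a, Rps27l, Rpl11, Rpl7a, Rps4l, Rpl41, Rps28, Rpl36a, Rps25, Rps24, Rpl21 and Rps15, with 6 from each subunit.

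**Figure D3:**
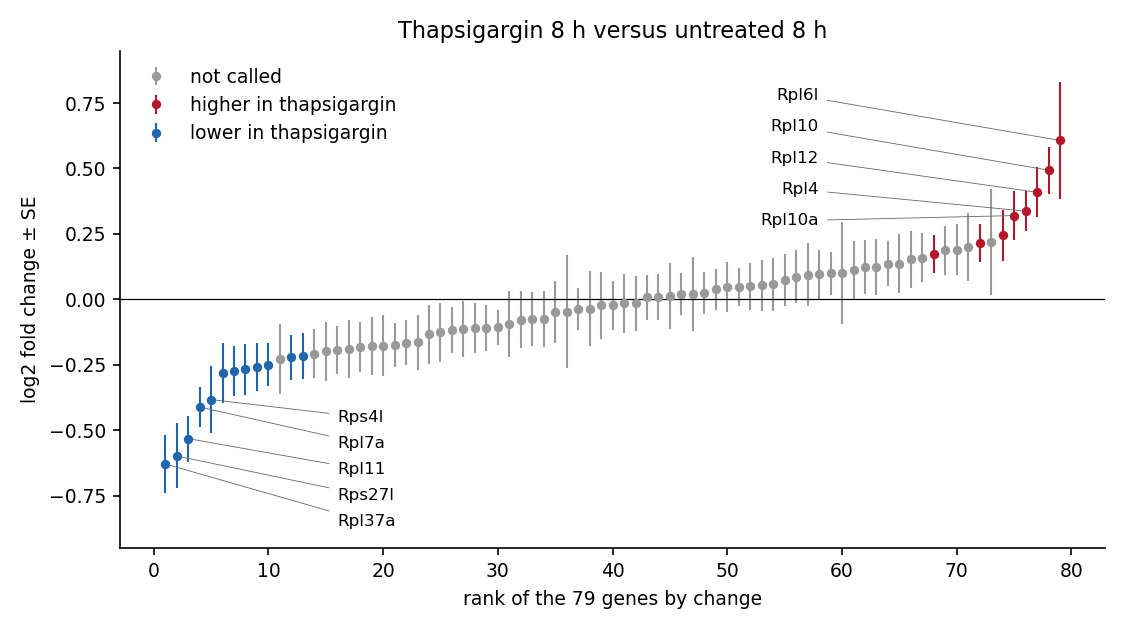
The 79 members ranked by log2 fold change (± SE) in thapsigargin 8 h against untreated 8 h libraries, coloured by call. The 5 largest rises (Rpl6l 0.61 to Rpl10a 0.32) and falls (Rpl37a -0.63 to Rps4l -0.38) are named.

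Rpl10, which joins the large subunit last, had 876, 772, 853 and 772 CPM in the thapsigargin 8 h libraries, against 661, 599, 541 and 523 CPM in the untreated 8 h libraries. Treated libraries were all higher, with a log2 fold change of 0.49 ± 0.09 (SE, edgeR adjusted p = 1.26e-05). Rpl12 had 813, 758, 764 and 659.6 CPM in the thapsigargin 8 h libraries, against 626, 607, 536 and 486 CPM in the untreated 8 h libraries, a change of 0.41 ± 0.10 (SE, edgeR adjusted p = 0.000404). Rpl4 had 1265, 1232, 1373 and 1303 CPM in the thapsigargin 8 h libraries, against 1101, 1008, 1016 and 969.6 CPM in the untreated 8 h libraries, and changed by 0.34 ± 0.08 (SE, edgeR adjusted p = 0.000233). None of these groups overlapped. Rpl10a rose by 0.32 and the pseudogene Rpl6l, at under 3 CPM, by 0.61. Rps6 had 443, 400.5, 443 and 403 CPM in the thapsigargin 8 h libraries, against 402, 362, 345 and 317 CPM in the untreated 8 h libraries, which overlap, and changed by 0.24 ± 0.10 (SE, edgeR adjusted p = 0.0313).

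Rpl37a, a zinc-binding protein, had 289, 246, 274 and 257 CPM in the thapsigargin 8 h libraries, against 473, 439, 368 and 368 CPM in the untreated 8 h libraries. Every treated library was lower, and the change was -0.63 ± 0.11 (SE, edgeR adjusted p = 7.04e-06). Rpl11, which binds Mdm2 when ribosome assembly fails, had 379, 360.2, 412 and 373 CPM in the thapsigargin 8 h libraries, against 587, 584, 521 and 513 CPM in the untreated 8 h libraries, and changed by -0.53 ± 0.09 (SE, edgeR adjusted p = 2.72e-06). Rpl7a had 795, 751, 818 and 761 CPM in the thapsigargin 8 h libraries, against 1142, 1111, 966 and 938 CPM in the untreated 8 h libraries, a change of -0.41 ± 0.08 (SE, edgeR adjusted p = 2.33e-05). Rps27l had 159.8, 148, 140.1 and 119 CPM in the thapsigargin 8 h libraries, against 226, 217, 215 and 200.0 CPM in the untreated 8 h libraries, and changed by -0.60 ± 0.12 (SE, edgeR adjusted p = 8.34e-05), while Rps27 had 0.09 ± 0.12 (SE, edgeR adjusted p = 0.521). All 4 genes that fell here were lower in each treated library than in any untreated one.

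Rpl36a fell (-0.27), whereas its paralog Rpl36al, which the symbol rule leaves out, rose (0.62). Rplp0 had 1847, 1597, 1808 and 1655 CPM in the thapsigargin 8 h libraries, against 1724, 1610.0, 1367 and 1365 CPM in the untreated 8 h libraries, which overlap, and a change of 0.19 ± 0.09 (SE, edgeR adjusted p = 0.0841). Rpsa (-0.13), Rpl3 (0.12), Rplp1 (-0.08), Rplp2 (-0.02), Rps4x (-0.19) and Rpl39 (-0.18) were not called. The split differed between library numbers, with 2 higher and 21 lower in the lower 20 and 11 higher and 4 lower in the upper 20, and medians of -0.13 and 0.12. In the isoform table summed per gene it was 2 higher and 10 lower. The 2 higher there were Rpl12 (1.04) and Rpl4 (0.34). The remaining members that rose by gene were not called higher there, namely Rpl10 (0.38), Rpl10a (0.28), Rps6 (0.16), Rpl5, Rpl6l and Rpl34. Of the members that rose by gene, Rpl12, Rpl10, Rps6, Rpl5 and Rpl6l are among those whose reads differ between the tables. The summed lineage markers were 1096 to 1326 CPM in thapsigargin 8 h libraries, against 2965 to 3419 CPM in untreated 8 h libraries, with 4 of 4 genes lower. Astrocyte markers summed to 242 to 285 CPM in thapsigargin 8 h libraries, against 451 to 547 CPM in untreated 8 h libraries, with 4 of 10 genes lower. Of 8 neuron markers tested 5 were higher and 1 lower, with Gad1 at 5.53, Snap25 at 2.09, Tubb3 at 1.62 and Nefl at 0.46. The list of 10 summed to 1053 to 1144 CPM in thapsigargin 8 h libraries, against 1145 to 1279 CPM in untreated 8 h libraries. That sum was mostly Map2 in untreated 1 h libraries, so it says little about the markers that rose. The part of these markers in the member levels was not tested.

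The thapsigargin effect at 8 h was set against that at 1 h as an interaction, where 11 members had a higher effect at 8 h and 1 a lower one, with 47.4% of all genes called. Rpl6l (0.74), Rpl10 (0.67), Rpl12 (0.60), Rpl10a (0.50) and Rplp0 (0.43) led, with edgeR adjusted p of 0.0459, 4.25e-05, 0.000389, 0.00206 and 0.0082, and Rpl11 (-0.36, 0.0168) was the one that went lower. Without untreated 8 h replicate 1 the count was 20. The lower 20 library numbers gave 2 higher and 3 lower with a median of -0.01, and the upper 20 gave 26 higher with a median of 0.39.

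The counts of list genes called at 8 h stand beside 60.6% of all genes called, and none is read as particular to its list. Of 29 TOP messages and translation factors 9 rose and 7 fell, and among the rises were Snhg12 (2.41) and Snhg1 (1.39), host transcripts of small nucleolar RNAs. Of 42 ribosome biogenesis genes 15 rose and 6 fell, with Nop14 at 1.20 and Nop10 at -1.25. Among regulators 13 of 27 rose and 4 fell, including Eif4ebp1 (4.23), which blocks cap-dependent initiation, Eif2ak3 (2.16), the stress kinase PERK, and Sesn2 (1.77), which restrains mTOR. Of 77 mitochondrial ribosomal protein genes 12 rose and 35 fell.

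Transcripts annotated for nonsense-mediated decay were examined in the isoform table because of the known self-control of Rpl3 and Rpl12, a choice made after their values had been seen. The table's 437 member transcripts included 22 of that annotation, and 20 were among the 58915 tested. At 8 h of thapsigargin 7 of 20 were higher and none lower, with a median log2 fold change of 0.63. Of 3538 transcripts of that annotation from other genes 305 (8.62%) were higher and 148 (4.18%) lower, with a median of 0.16, and 9.80% of all transcripts were higher. For the 187 protein-coding member transcripts tested, 4 were higher and 16 lower, with a median of -0.07.

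Rpl10a-203 had 122, 132, 103 and 79.8 CPM in the thapsigargin 8 h libraries, against 11.6, 12, 14.2 and 9.36 CPM in the untreated 8 h libraries. Treated libraries were several times higher with no overlap, and the log2 fold change was 3.21 ± 0.36 (SE, edgeR adjusted p = 9.9e-09). The main coding transcript, Rpl10a-201, had a change of -0.12 ± 0.15 (SE, edgeR adjusted p = 0.689). The decay-annotated share of Rpl10a estimated reads was 24.1, 29.9, 20.7 and 17.1% in the thapsigargin 8 h libraries, against 2.41, 2.92, 3.91 and 2.58% in the untreated 8 h libraries. The IFN-gamma 8 h libraries had 15.4, 14.5, 15.2 and 10.5 CPM of Rpl10a-203.

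Rpl12-201 had 32.6, 55.4, 22.1 and 13.4 CPM in the thapsigargin 8 h libraries, against 2.03, 2.06, 1.49 and 1.32 CPM in the untreated 8 h libraries, a change of 4.15 ± 0.66 (SE, edgeR adjusted p = 7.47e-06). Its treated libraries spread widely but all exceeded the untreated ones. The gene table holds many times the reads that the isoform table gives Rpl12, so its level is the least certain of these. Rps9-210 had 17.8, 15.8, 17.2 and 16.7 CPM in the thapsigargin 8 h libraries, against 3.8, 3.26, 3.53 and 3.42 CPM in the untreated 8 h libraries, and changed by 2.27 ± 0.24 (SE, edgeR adjusted p = 4.83e-09). Rpl3-205 had 11.5, 8.96, 11.4 and 13.1 CPM in the thapsigargin 8 h libraries, against 3, 3.22, 3.47 and 2.58 CPM in the untreated 8 h libraries, and changed by 1.87 ± 0.29 (SE, edgeR adjusted p = 5.27e-06), while the coding Rpl3-201 and Rps9-201 changed by 0.05 and -0.07. Rpl27a-205, Rps12-204 and Rps19-205 rose by 1.28, 1.09 and 0.92, with edgeR adjusted p of 0.0401, 2.86e-05 and 6.01e-05. The 7 genes that carry them were not all called at the gene level, where Rpl12 and Rpl10a rose and Rpl3, Rps9, Rps12, Rps19 and Rpl27a did not pass.

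**Figure D4:**
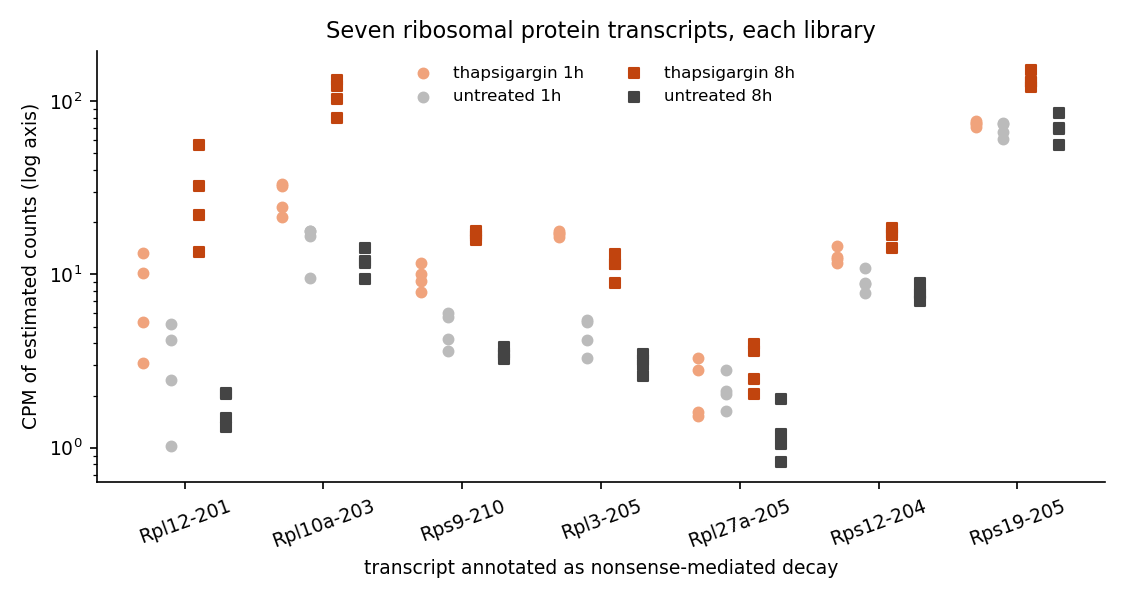
CPM of estimated counts (log axis) of the 7 decay-annotated member transcripts called at 8 h, with thapsigargin beside untreated libraries at 1 and at 8 h, 1 point a library. Rpl10a-203 lies between 79.8 and 132 CPM in thapsigargin 8 h libraries and between 9.36 and 14.2 CPM in untreated 8 h libraries.

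At 1 h of thapsigargin 2 of 20 decay-annotated member transcripts were higher, against 1.87% of those of other genes. Rpl3-205 had 17.4, 17.9, 17.1 and 16.3 CPM in the thapsigargin 1 h libraries, against 5.31, 3.31, 5.49 and 4.17 CPM in the untreated 1 h libraries, a log2 fold change of 1.91 ± 0.29 (SE, edgeR adjusted p = 6.44e-05). Rps9-210 changed by 0.99 ± 0.23 (SE, edgeR adjusted p = 0.0156). Rpl10a-203 and Rpl12-201 had 0.85 and 1.31, not called (edgeR adjusted p = 0.276 and 0.394). In untreated cells at 48 h against 1 h, 8 of 20 were lower, with a median of -0.89, where 4.83% of those of other genes were lower. Of the 187 protein-coding member transcripts tested, 115 were lower as well, with a median of -0.56. The fall is therefore not particular to the decay-annotated transcripts. For these transcripts the lower and upper 20 library numbers gave 8 and 6 calls for thapsigargin at 8 h, and 1 and 0 at 1 h.

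IFN-gamma and thapsigargin were compared directly at 8 h, the last time both were sampled. In IFN-gamma libraries 8 members were higher and 12 lower, where 61.4% of all genes were called. Rps27l (0.65), Rpl37a (0.55), Rpl11 (0.43), Rpl7a (0.38) and Rps4l (0.37) were higher with IFN-gamma. Rpl10 (-0.59), Rpl12 (-0.48), Rpl10a (-0.44), Rpl4 (-0.39) and Rps6 (-0.37) were lower. The edgeR adjusted p ran from 5.56e-07 for Rpl10 to 0.0120 for Rps4l. The lower 20 library numbers gave 5 higher and 12 lower and the upper 20 gave 7 and 6. This comparison shares the thapsigargin libraries with that against untreated cells, and the 2 sets of values are not independent.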

How the data were processed

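The authors deposited raw whole-number read counts per gene and estimated counts per transcript for all 40 libraries. Per the submitters' processing notes STAR, featureCounts, kallisto and edgeR were used; their roles and versions, the genome build and the strand setting were not given in the sources used here. Symbols, biotypes and transcripts came from GENCODE M21, with 38872 of 39056 gene entries and 112029 of 112588 transcripts matched on ID. One edgeR 4.0.16 quasi-likelihood fit (R 4.3.3) held all 40 libraries and 10 group means (30 residual degrees of freedom), with TMM scaling, filterByExpr by group and Benjamini-Hochberg adjustment over 15135 genes; standard errors are the fold change over the square root of F. CPM use TMM-scaled library sizes. Transcript estimated counts were rounded and fitted in the same way; TPM used GENCODE transcript lengths. Tested on simulated data for IFN-gamma at 48 h over 14754 genes, the gene fit found 38% of changes of 1.25 times. It found 80% of 1.5 times and 94% of 2 times. For transcripts, only thapsigargin 8 h and untreated 8 h libraries were simulated and fitted, over 43241 transcripts. That smaller fit found 14% of changes of 2 times and 60% of 4 times. The transcript calls came from all 40 libraries and 58915 transcripts, so these percentages do not give the recovery of that fit. Members named in a comparison were up to 5 rises and 5 falls among called, non-overlapping members (interactions without the overlap condition), and 14 fixed genes; side-list genes were the called ones of largest change, plus Myc and 5 ribosome components, and some list genes are not reported here. The members, lists and naming rule were chosen with earlier results of these data known. Alternatives were DESeq2 1.42.0, other scalings, no filter, only the compared groups, the lower or upper 20 library numbers or a block for them, a Y-linked covariate, the isoform table and each library left out. Rpl6l and Rpl24 had libraries with 100 reads or fewer, which limits their precision.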

Additional observations from a re-analysis of the deposited data

Results flagged for a closer look

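Of 64 groups of 4 libraries checked, 1 held a library far from the others, where chance gives about 1 in 20. Rplp2 had 409 CPM in untreated 1 h replicate 4, against 485 to 487 CPM in the other 3 libraries. The IFN-gamma effect differed between 48 h and 1 h, tested as an interaction, for Rps19 (0.68), Rps20 (0.65), Rplp2 (0.56), Rps13 (0.56), Rps10 (0.54), Rpl10 (0.50), Rplp1 (0.47), Rplp0 (0.46) and Rpl39 (0.44) on the log2 scale, higher at 48 h in each. The thapsigargin effect differed between 8 h and 1 h for Rpl6l (0.74), Rpl10 (0.67), Rpl12 (0.60), Rpl10a (0.50), Rplp0 (0.43) and Rps6 (0.37), higher at 8 h, and for Rpl11 (-0.36), lower at 8 h. The causes were not tested.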

How the results depend on the processing

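No paired analysis was possible because the labels give no replicate numbers. Y-linked and Xist levels recur in IFN-gamma libraries of different times, but pairs were not built from measured values; libraries were blocked in its place by whether their number is among the lowest or highest 20. Of 286 recomputed counts of calls 222 stayed within 1.5 times, and no called value changed sign; members' medians near 0 differed in sign between library number sets, as given above. Fitting only the compared groups gave 1, 1, 4, 32, 3, 15 and 38 calls for IFN-gamma 1, 8 and 48 h, thapsigargin 1 h, untreated 8 and 24 h and IFN-gamma against thapsigargin at 8 h, and 32 for thapsigargin 8 h against 1 h. DESeq2 gave 12 for thapsigargin 1 h and 1 for untreated 8 h. The block gave 1 for IFN-gamma 24 h, 6 for thapsigargin 1 h and 1 for untreated 8 h. With no filter, thapsigargin 1 h, untreated 24 h and thapsigargin 8 h against 1 h gave 0, 10 and 7. The isoform table gave 16, 0, 12, 3, 5 and 4 for IFN-gamma 48 h, thapsigargin 1 and 8 h, untreated 24 h and the IFN-gamma and thapsigargin interactions, with 8 higher and 6 lower for IFN-gamma against thapsigargin at 8 h and 2 and 2 for the thapsigargin interaction. The lower 20 library numbers gave 22, 1, 9, 1, 2, 8 and 5 for IFN-gamma 8, 24 and 48 h, thapsigargin 1 h, untreated 24 h and the interactions of IFN-gamma and thapsigargin. The upper 20 gave 13 for IFN-gamma against thapsigargin at 8 h, 2 for IFN-gamma 48 h against 24 h and 26 for thapsigargin 8 h against 1 h. Decay-annotated transcripts at thapsigargin 1 h gave 1 and 0 in the lower and upper 20, a fit added after seeing the data. The causes were not tested.

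Leaving out 1 library gave 0 to 0 calls for IFN-gamma 1 and 8 h, 0 to 1 for 24 h, 19 to 61 for 48 h, 0 to 5 and 14 to 18 for thapsigargin 1 and 8 h, 0 to 1, 2 to 26 and 75 to 79 for untreated 8, 24 and 48 h, 16 to 20 for IFN-gamma against thapsigargin, 13 to 58, 0 to 14 and 10 to 20 for the interactions of IFN-gamma at 48 h with 1 and 24 h and of thapsigargin, and 1 to 2 and 6 to 7 for decay-annotated transcripts at 1 and 8 h. Of single-gene and single-transcript values 3663 kept their side of the threshold, 209 lost their call and 60 gained one.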
